A study of Homo sapiens with 16 samples.

Results

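LNCaP cells, an established human line of androgen-dependent prostate cancer, were treated with dihydrotestosterone (DHT) alone or with DHT and the antiandrogen bicalutamide, and their gene expression was compared. The comparison uses 4 of the 16 libraries of the series: ATT.BIC.DHT.3A and ATT.BIC.DHT.7 against ATT.DHT.3C and ATT.DHT.7B, paired by the number 3 or 7 in these names, whose meaning the labels do not state. They were chosen by their labels alone and are called BIC.DHT and DHT here, with library number 3 (replicate 1) and library number 7 (replicate 2). All cells were grown for 72 h with 5% fetal bovine serum, then held for 48 h in 5% charcoal-stripped serum, which contains little androgen, and then treated for 48 h. DHT libraries received 10 nM DHT and the solvent DMSO, and BIC.DHT libraries received 10 nM DHT and 10 µM bicalutamide. For reference, VEH libraries received the solvents ethanol and DMSO only, and ENZ.DHT and APA.DHT libraries received 10 nM DHT with 10 µM enzalutamide or 10 µM apalutamide (ARN in the labels). Each group had 2 biological replicates of a single cell line, so p-values describe the spread between these samples of LNCaP and no other prostate cancer model. Wherever a pair of values is given for a group, the first is library number 3 and the second is library number 7.

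DHT is a potent natural ligand of the androgen receptor, a nuclear receptor that moves to chromatin when it binds its ligand and switches target genes on or off. Bicalutamide, enzalutamide and apalutamide are nonsteroidal antagonists that compete with DHT for the ligand-binding pocket of the receptor. In prostate epithelium the receptor drives secreted proteases such as prostate-specific antigen, lipid and polyamine synthesis and secretory capacity, and in prostate cancer cells also proliferation. Genes that the androgen-bound receptor represses include enzymes that inactivate androgens by glucuronidation.

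The upstream sequences of 3 genes that appear below are shown because they hold AGAACA, a half-site of the androgen response element, or a copy of it with 1 base changed, in genes that moved in opposite directions. They come from RefSeq (GRCh38.p14), read 5′ to 3′ towards the gene, begin 250 bases upstream of the annotated start and are 150 bases long. The capitals mark 15 bases, the length of an androgen response element, beginning at the motif AGAACA in KLK3 and UGT2B15 and at the matching place in KLK2. KLK3 and KLK2 fell with bicalutamide, and UGT2B15 rose.
KLK3 (chr19:50854665-50854814, plus strand): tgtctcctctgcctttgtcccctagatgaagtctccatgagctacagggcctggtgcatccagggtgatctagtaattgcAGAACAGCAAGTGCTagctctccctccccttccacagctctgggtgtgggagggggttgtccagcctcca
KLK2 (chr19:50873189-50873338, plus strand): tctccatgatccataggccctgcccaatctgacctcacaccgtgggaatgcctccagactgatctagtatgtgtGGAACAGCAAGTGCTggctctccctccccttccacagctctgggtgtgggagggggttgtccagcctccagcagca
UGT2B15 (chr4:68670753-68670902, minus strand): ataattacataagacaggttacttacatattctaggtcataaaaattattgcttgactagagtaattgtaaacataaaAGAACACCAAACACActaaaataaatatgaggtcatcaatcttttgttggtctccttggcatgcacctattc
The capitals of KLK2 differed from those of KLK3 by A1G, with positions counted from 1 at the 5′ end of the capitals and the KLK3 base given first. Those of UGT2B15 differed from KLK3 at 5 positions, by G7C, G11A, T12C, G13A and T15A. The motif AGAACA, searched on both strands from 250 bases upstream to 50 bases downstream of the start, was present in 972 of the 10853 tested genes with a promoter entry (8.96%) and in 14.85% of all 27305 promoters in the table. By the test described below, it was in 78 of 842 such genes called lower with bicalutamide (9.26%) and 75 of 756 called higher (9.92%). Among those called with a change of 2-fold or more, it was in 17 of 117 lower (14.53%) and 18 of 128 higher (14.06%). A match describes the letters only and is not a measurement of receptor binding.

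The libraries held 14652 to 15360 genes at 1 TPM (a level per transcript length, scaled to a common library total) or more across the series. In the libraries compared, mitochondrial genes took 22.3% and 14.7% of the total in DHT and 20.6% and 17.0% in BIC.DHT, so the larger difference was between library numbers. Most luminal epithelial markers were abundant, with KRT8 at 545.5 TPM or more and FOLH1 at 646.7 TPM or more in the VEH, DHT and BIC.DHT libraries. The luminal keratin KRT19 was lower, at 3.5 to 40.74 TPM in these libraries. The endothelial marker CDH5, the T-cell marker CD3E and the stromal marker DCN were at 0 in all 6 of these libraries. Other markers of such cell types were detected. The stromal marker COL1A1 was at 11.44 to 32.55 TPM, the leukocyte marker CD68 at 1.22 to 6.89 TPM and the endothelial marker VWF at 0.63 to 1.9 TPM. The summed level of the 13 markers of other cell types was 23.35 to 43.68 TPM, with COL1A1 the highest of them. Of those 13 markers 5 were tested, and 2 were called lower with bicalutamide, ACTA2 and the basal keratin KRT14, neither above 9.96 TPM, and both calls were lost without the replicate block described below (adjusted p 0.086 and 0.077 by limma). KRT14 reached 1 TPM in the DHT libraries alone, so it could enter the test only as a gene that was higher there.

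With bicalutamide many genes of DHT-treated cells were called, in nearly equal numbers up and down, and how many depended strongly on the fit. Of 16636 genes tested, 2216 were called at an adjusted p below 0.05 (13.3% of those tested), 1082 higher (6.5%) and 1134 lower (6.82%) with bicalutamide. Of these, 388 changed by 2-fold or more on the log2(TPM + 1) scale, 200 upwards and 188 downwards. All 2216 moved in the same direction in both library numbers, which is partly set by the selection of called genes. Over all tested genes the differences in library numbers 3 and 7 correlated at r 0.55. In 2043 of the called genes the BIC.DHT and DHT values did not overlap. Among all tested genes, 21.9% had both BIC.DHT values below those of DHT and 25% had both above. The filter on low values (1 TPM or more in 2 libraries) was passed only through the DHT libraries by 155 tested genes, 62 of them called, all lower, and only through the BIC.DHT libraries by 62 genes, 4 of them called, all higher. The median log2 fold change over all tested genes was 0.00. The test was limma's moderated test with the library number as a block, and without the block 521 genes (3.13%) were called, 242 higher (1.45%) and 279 lower (1.68%), all of them among the 2216 in the same direction. The count fell to 755 without BIC.DHT replicate 1, 761 without BIC.DHT replicate 2, 1045 without DHT replicate 1 and 1013 without DHT replicate 2, and was 68 with only the DHT and BIC.DHT libraries in the fit, and rose to 4299 with the ENZ.DHT and APA.DHT libraries left out of it.

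**Figure D1:**
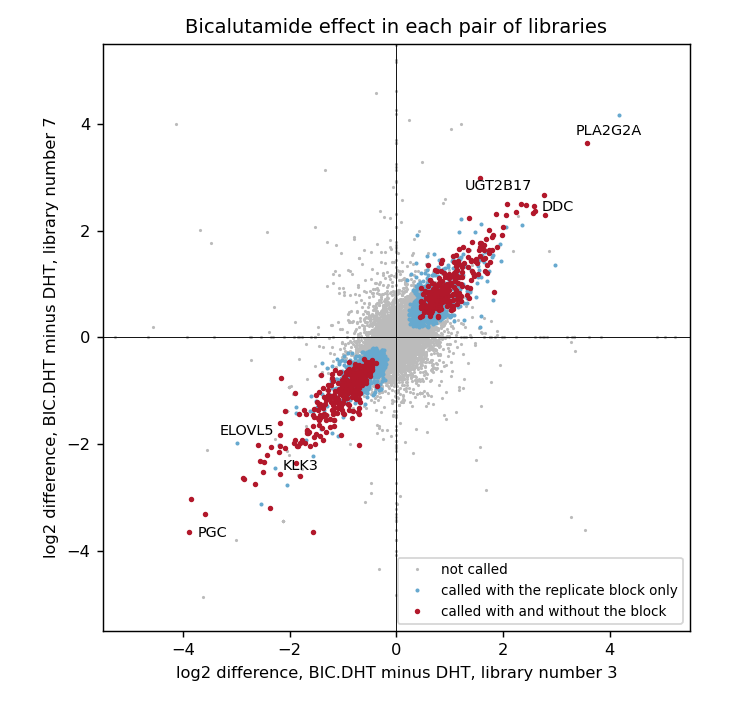
Each point is 1 tested gene, placed by its log2(TPM + 1) difference of BIC.DHT minus DHT in library number 3 (horizontal) and library number 7 (vertical), with 3 genes outside the axes. The called genes lie along the diagonal in the lower left and upper right, with PGC near the lower end and PLA2G2A near the upper end, and genes called with and without the replicate block (521) lie mostly farther from 0 than those called with the block only.

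Genes listed as induced by androgens fell with bicalutamide almost as a group. The list was written with earlier results of these data known, so its counts describe these genes and are not independent support. Of 40 such genes, all tested, 35 were called lower and none higher with the replicate block, and 27 were called lower without it, against 6.82% of all tested genes called lower (1.68% without the block). STEAP4, HPGD, ADAM7, PTGER4 and ORM1 passed the filter only through the DHT libraries, and of the other 35 members 30 were called lower, 22 without the block. The median log2 fold change of the list was -1.24, against 0.00 over all genes. The list's summed level was 9188 and 7477 TPM with DHT alone, 2924 and 2515 TPM with bicalutamide and 1567 and 1412 TPM in VEH. It thus fell in both library numbers and stayed above the level without androgen.

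KLK3, the gene of prostate-specific antigen (chromosome 19, 50854915 to 50860764, as for all positions here in the RefSeq annotation of GRCh38.p14), was measured at 4102 and 2422 TPM with DHT alone and at 844.6 and 444.6 TPM with DHT and bicalutamide. The groups did not overlap, and both bicalutamide libraries still lay far above the 53.0 and 24.0 TPM of VEH. The log2 fold change of KLK3 was -2.36 (SE 0.32, adjusted p 0.0012 by limma), and the call was lost without the replicate block (adjusted p 0.081). KLK2, the neighbouring kallikrein protease (chromosome 19, 50873439 to 50880567), went from 493.7 and 484.5 TPM to 77.9 and 71.1 TPM (log2 fold change -2.7, SE 0.41, adjusted p 0.0020 by limma). KLK4, another kallikrein of this cluster, was less reduced, from 523.1 and 406.8 TPM to 239.2 and 177.9 TPM (log2 fold change -1.16, SE 0.24, adjusted p 0.010 by limma, and 0.25 without the block). KLK2 and KLK3 are close copies, and the authors' estimation may have divided shared reads between them.

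TMPRSS2, a membrane serine protease (chromosome 21, 41464305 to 41508158), had 429.5 and 279.2 TPM with DHT alone and 76.1 and 54.6 TPM with bicalutamide. Its log2 fold change of -2.41 had an SE of 0.11 (adjusted p 9.1e-07 by limma). FKBP5, a chaperone of steroid receptors, decreased from 81.4 and 92.8 TPM to 16.8 and 20.1 TPM, close to the 11.99 and 13.5 TPM of VEH (log2 fold change -2.18, SE 0.12, adjusted p 4.0e-06 by limma). The calcium channel gene TRPM8 was at 39.1 and 33.8 TPM with DHT, 14.7 and 15.1 TPM with bicalutamide and 2.64 and 2.18 TPM in VEH, and SLC45A3, the gene of the prostate membrane protein prostein, followed the same order at 133.1 and 158.6, 49.7 and 63.6, and 23.3 and 20.7 TPM. Both were called lower than with DHT alone (adjusted p 0.0020 and 9.8e-05 by limma). The 5 list members without a call were ACPP (ACP3), ZBTB16, SGK1, CAMKK2 and STEAP2, with log2 fold changes from -0.66 to 0.29. STEAP2, at 226.1 and 238.5 TPM with DHT and 286.7 and 279.9 TPM with bicalutamide, was the one member with a value above 0.

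Several of the deepest falls were in genes that were nearly silent without androgen. PGC, the precursor of a gastric-type protease (chromosome 6, 41736711 to 41747397), went from 43.3 and 30.8 TPM to 2.00 and 1.55 TPM, a log2 fold change of -3.76 (SE 0.20, adjusted p 2.9e-06 by limma). CHRNA2, a nicotinic acetylcholine receptor subunit (chromosome 8, 27459756 to 27479261), went from 30.6 and 32.6 TPM to 1.62 and 2.37 TPM, and its log2 fold change was -3.46 (SE 0.20, adjusted p 4.0e-06 by limma). Both had 0.42 TPM or less in each VEH library, so a small level remained with bicalutamide. ORM1, an acute-phase plasma glycoprotein (chromosome 9, 114323098 to 114326479), fell from 13.4 and 8.10 TPM to 0 and 0.12 TPM, where VEH had 0.07 and 0.12 TPM. GNMT, the enzyme that methylates glycine and so consumes S-adenosylmethionine (chromosome 6, 42960754 to 42963880), fell from 84.2 and 76.8 TPM to 13.5 and 14.7 TPM. It overlaps a read-through gene, CNPY3-GNMT.

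The other genes among the 10 with the largest called falls were TUBA3D, MYBPC1, TRIM49D2 and ZNF812P. TUBA3D, an alpha-tubulin (chromosome 2, 131476119 to 131482934), had 12.3 and 24.96 TPM with DHT and 1.58 and 1.83 TPM with bicalutamide. MYBPC1, a myosin-binding protein of slow muscle (chromosome 12, 101594971 to 101695841), had 15.03 and 22.5 TPM with DHT and 1.18 and 2.75 TPM with bicalutamide, both under its VEH levels of 1.74 and 4.44 TPM. In TRIM49D2, a tripartite motif gene (chromosome 11, 89924064 to 89933063), the DHT libraries differed from each other, at 4.28 and 16.9 TPM, and bicalutamide gave 0.79 and 0.42 TPM. ZNF812P, a zinc finger pseudogene (chromosome 19, 9688860 to 9700776), went from 17.3 and 21.9 TPM to 2.24 and 2.99 TPM. Log2 fold changes of these 4 genes were between -2.78 and -2.51, with the largest adjusted p by limma, 0.0022, in TRIM49D2. ORM1 and TRIM49D2 reached 1 TPM in the DHT libraries alone and entered the test through them, so their falls are a description. TUBA3D, TRIM49D2 and ORM1 have near-identical copies in the genome, so their levels are less certain.

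Genes listed as repressed by androgen mostly moved the other way. This list too was written with earlier results of these data known, so its counts are a description. Of the 16 genes listed, 14 were tested, 9 rose and 2 fell with bicalutamide (6 and 1 without the block), with a median log2 fold change of 1.56. Across all tested genes 6.5% were called higher and 6.82% lower (1.45% and 1.68% without the block). The largest rise was in PLA2G2A, a secreted phospholipase A2 (chromosome 1, 19975431 to 19980434). It had 23.1 and 12.3 TPM with DHT alone, 284.3 and 165.5 TPM with bicalutamide and 448.4 and 301.3 TPM in VEH. The 12.7-fold difference of the means corresponded to a log2 fold change of 3.61 (SE 0.09, adjusted p 8.1e-09 by limma) and was alike in both library numbers, at 3.57 and 3.65.

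The glucuronosyltransferases of the UGT2B family, which attach glucuronic acid to steroids, were split. UGT2B17, which inactivates testosterone and DHT (chromosome 4, 68537173 to 68576322), rose from 25.2 and 38.4 TPM to 178.1 and 248.3 TPM (log2 fold change 2.72, SE 0.18, adjusted p 9.9e-06 by limma). UGT2B15, a second enzyme with this activity and the gene on the minus strand shown above, rose from 15.7 and 34.3 TPM to 62.8 and 118.6 TPM (log2 fold change 1.85, SE 0.30, adjusted p 0.0027 by limma, and 0.31 without the block). UGT2B28 and UGT2B11 were the list members that fell, UGT2B28 from 4.21 and 9.04 TPM to 0.22 and 1.37 TPM and UGT2B11 from 12.5 and 36.7 TPM to 3.41 and 13.4 TPM. Their log2 fold changes were -2.09 (SE 0.16, adjusted p 3.5e-05 by limma) and -1.501 (SE 0.23, adjusted p 0.0020 by limma, and 0.64 without the block). UGT2B10 was at 3.50 and 6.91 TPM with DHT and 3.23 and 5.21 TPM with bicalutamide and was not called. These genes are close copies of each other, and reads that fit several of them were divided by a model.

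Among the other genes that rose most, DDC, which makes dopamine and serotonin from their amino acid precursors (chromosome 7, 50458442 to 50565405), was the most abundant. DDC had 110.2 and 72.4 TPM with DHT alone, 661.9 and 404.4 TPM with bicalutamide and 840.3 and 568.4 TPM in VEH, and its log2 fold change was 2.52 (SE 0.07, adjusted p 8.1e-09 by limma). CAMK2N1, an inhibitor of calmodulin-dependent kinase II (chromosome 1, 20482391 to 20486210), went from 93.8 and 47.4 TPM to 343.7 and 241.1 TPM. BCHE, butyrylcholinesterase (chromosome 3, 165772904 to 165837423), went from 9.84 and 13.4 TPM to 62.5 and 71.7 TPM. In each of these genes the bicalutamide libraries lay above both DHT libraries and below the VEH library of the same library number.

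DAPK1, a death-associated protein kinase (chromosome 9, 87497228 to 87708634), rose from 3.53 and 3.44 TPM to 23.3 and 23.9 TPM, against 25.6 and 24.7 TPM in VEH. CCDC80, a secreted matrix protein (chromosome 3, 112596797 to 112641143), rose from 2.04 and 1.96 TPM to 14.3 and 15.8 TPM. SERPINI1, the protease inhibitor neuroserpin (chromosome 3, 167735721 to 167825569), rose from 7.57 and 4.16 TPM to 34.6 and 24.3 TPM. The remaining genes of the 10 with the largest rise were IFI27L2, an interferon-inducible family member (chromosome 14, 94127781 to 94129604), from 3.89 and 0.97 TPM to 19.5 and 10.2 TPM, and the long noncoding RNA LINC02672 (chromosome 10, 52972264 to 53030110), from 1.52 and 1.5 TPM to 16.3 and 11.3 TPM. Log2 fold changes of these 5 genes were between 2.18 and 2.54, and the largest adjusted p by limma was 3.1e-05, in DAPK1.

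**Figure D2:**
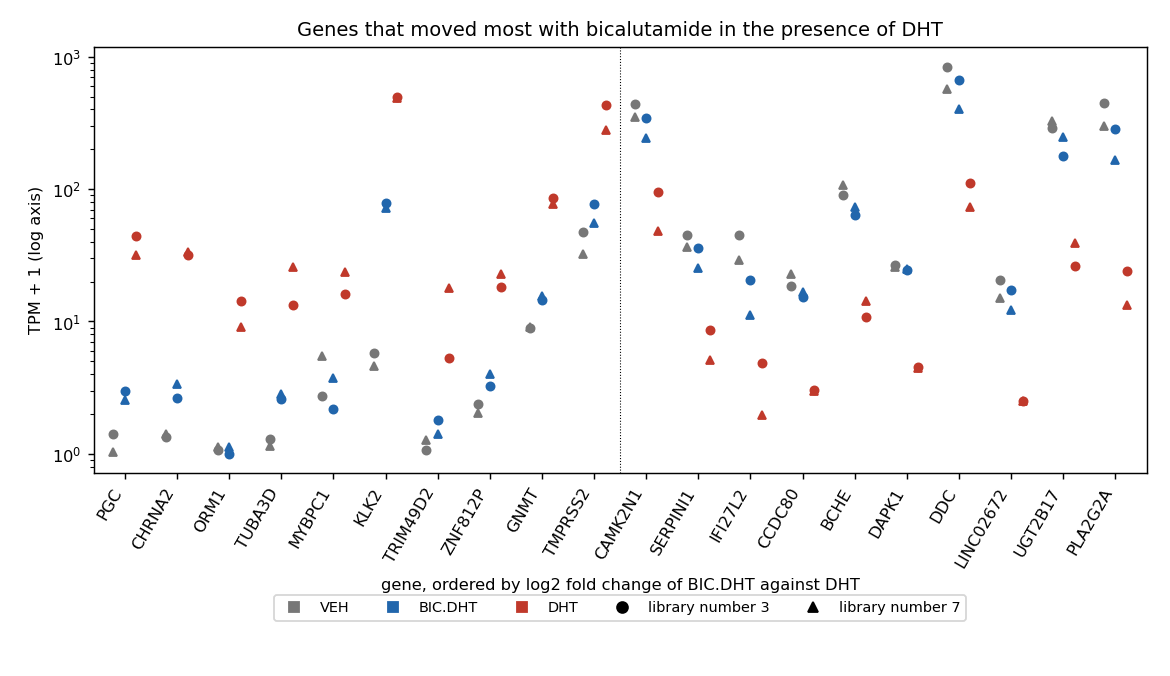
TPM + 1 (log axis) of the 10 genes with the largest called fall (left of the dotted line) and the 10 with the largest called rise (right), in VEH (grey), BIC.DHT (blue) and DHT (red), with circles for library number 3 and triangles for library number 7. The genes were chosen among those whose blue and red points do not overlap, and the mean of the blue points lies from the red towards the grey in all 20, with KLK2 the farthest above VEH (77.9 and 71.1 against 4.78 and 3.60 TPM).

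Enzymes of steroid metabolism moved in both directions. Of 19 tested of 28 listed, 4 rose and 4 fell, where 6.5% of all tested genes rose and 6.82% fell. UGT2B17 and UGT2B15 were among those that rose and UGT2B28 and UGT2B11 among those that fell. Without the block UGT2B17 rose and UGT2B28 and HSD17B11 fell. The list shares the UGT2B genes, AKR1C3 and HSD17B6 with the androgen-repressed list. The other calls were AKR1C3 and HSD17B14, higher, and HSD17B11 and CYP11A1, lower. AKR1C3, which reduces androstenedione to testosterone, rose from 1.58 and 1.24 TPM to 6.28 and 5.04 TPM (log2 fold change 1.46, SE 0.23, adjusted p 0.0023 by limma, and 0.066 without the block), and it shares reads with the near-identical AKR1C1 and AKR1C2, which were not called. HSD17B11, an enzyme of androgen and lipid metabolism, fell from 9.93 and 12.3 TPM to 4.55 and 5.64 TPM (log2 fold change -0.99, SE 0.14, adjusted p 0.0016 by limma). SRD5A1, the 5-alpha-reductase that makes DHT, was at 17.7 and 17.2 TPM with DHT and 14.5 and 14.3 TPM with bicalutamide and was not called.

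The cholesterol pathway fell with bicalutamide along most of its length. Of 25 tested genes of sterol synthesis and uptake, 20 were called lower and 1 higher, and without the block 10 and 0, where 6.82% of all tested genes were called lower (1.68% without the block). The median log2 fold change was -0.72. HMGCS1, which makes HMG-CoA at the start of the pathway (chromosome 5, 43287470 to 43313412), went from 139.6 and 159.0 TPM to 53.8 and 58.3 TPM (log2 fold change -1.396, SE 0.19, adjusted p 0.0013 by limma), where VEH had 45.2 and 58.7 TPM. INSIG1, which retains the sterol sensor in the endoplasmic reticulum, had a log2 fold change of -1.14 (SE 0.15, adjusted p 0.00086 by limma, and 0.089 without the block). MSMO1 and HSD17B7 were among the 4 members without a call, and TM7SF2, a sterol reductase, was called higher, from 413.1 and 295.8 TPM to 498.4 and 367.0 TPM (log2 fold change 0.29, adjusted p 0.044 by limma, and 0.71 without the block). The call of TM7SF2 was also lost without any single library of BIC.DHT or DHT.

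Fatty acid synthesis followed, with 13 of 24 tested genes lower and 1 higher (8 and 0 without the block), against the same 6.82% and 1.68%, and a median log2 fold change of -0.57. ELOVL5, an elongase of polyunsaturated fatty acids (chromosome 6, 53267404 to 53348950), fell from 690.3 and 635.9 TPM to 182.9 and 166.1 TPM (log2 fold change -1.92, SE 0.07, adjusted p 2.8e-07 by limma). ACSL3, which activates long-chain fatty acids, fell from 212.1 and 276.6 TPM to 72.3 and 74.9 TPM, and the elongase ELOVL7 from 55.0 and 87.8 TPM to 18.6 and 24.3 TPM, with log2 fold changes of -1.71 (SE 0.14) and -1.66 (SE 0.15) and adjusted p (limma) of 4.6e-05 and 9.5e-05. FASN, the fatty acid synthase, fell from 659.2 and 544.9 TPM to 289.3 and 253.5 TPM (adjusted p 0.00026 by limma), close to the 301.2 and 246.3 TPM of VEH. SREBF1, the transcription factor gene of this pathway, was at 520.9 and 458.9 TPM with DHT and 458.6 and 363.2 TPM with bicalutamide and was not called, and SREBF2, its counterpart in sterol synthesis, was called lower only with the block (adjusted p 0.0496 by limma, and 0.24 without it). DGAT2, an enzyme of triglyceride synthesis, was the member that rose, from 35.3 and 29.2 TPM to 51.0 and 42.7 TPM (log2 fold change 0.52, SE 0.12, adjusted p 0.015 by limma, and 0.26 without the block), and its call was also lost without any single one of the 4 libraries.

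In polyamine metabolism 4 of 10 genes fell and none rose (2 without the block), where 6.82% of all tested genes fell (1.68% without the block), and the median log2 fold change was -0.06. SMS, spermine synthase (chromosome X, 21940709 to 21994837), fell from 336.5 and 401.2 TPM to 104.9 and 120.1 TPM, and VEH stood at 96.5 and 105.7 TPM. Its log2 fold change was -1.70 (SE 0.07, adjusted p 6.0e-07 by limma). SRM, spermidine synthase, fell from 187.8 and 222.0 TPM to 114.6 and 127.7 TPM (log2 fold change -0.75, SE 0.11, adjusted p 0.0014 by limma). ODC1, the enzyme that makes putrescine, and SAT1, which acetylates polyamines for export, fell as well, with adjusted p (limma) of 0.0063 and 0.00064 with the block and 0.51 and 0.26 without it. AMD1, the antizyme genes OAZ1 and OAZ2, AZIN1, PAOX and SMOX were not called, with log2 fold changes from -0.10 to 0.24.

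Genes of protein folding and early secretion in the endoplasmic reticulum fell by smaller amounts. Of 32 tested, 14 were called lower and none higher, 4 without the block, against 6.82% and 1.68% of all tested genes, and the median log2 fold change was -0.38. PDIA5, a disulfide isomerase, fell from 59.4 and 70.3 TPM to 34.5 and 34.6 TPM (log2 fold change -0.88, SE 0.11, adjusted p 0.00054 by limma). SEC61B, a subunit of the translocation channel, fell from 383.5 and 375.6 TPM to 225.2 and 228.8 TPM (log2 fold change -0.74, SE 0.10, adjusted p 0.00090 by limma). KDELR3, a retrieval receptor, went from 9.03 and 9.09 TPM to 4.32 and 4.73 TPM (log2 fold change -0.87, SE 0.18, adjusted p 0.0093 by limma, and 0.11 without the block), and its call was lost without BIC.DHT replicate 1 and without DHT replicate 2. The most abundant chaperones HSPA5 and CALR were not called and had log2 fold changes of -0.11 and -0.04.

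**Figure D3:**
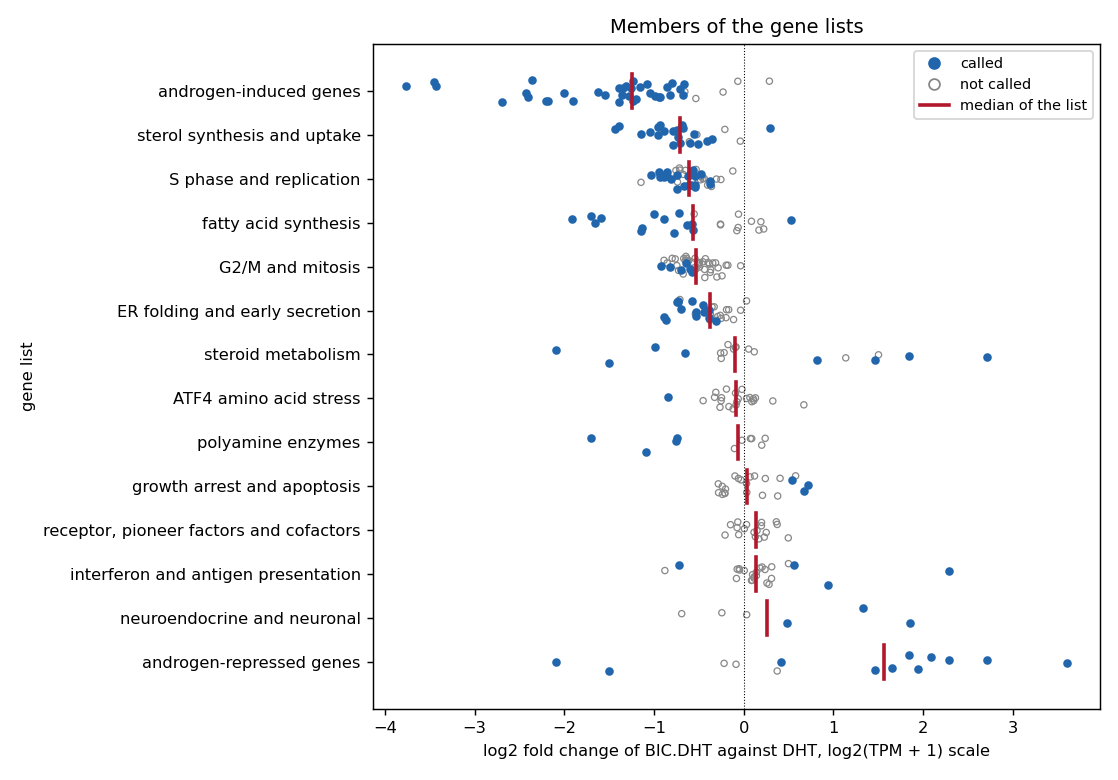
Log2 fold change of BIC.DHT against DHT for the tested members of 14 gene lists, ordered by their medians (red bars), with called genes filled and the others open. Androgen-induced genes sit farthest to the left (median -1.24) and androgen-repressed genes farthest to the right (median 1.56), while the lists of receptor cofactors and of amino acid stress lie around 0.

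Proliferation genes were lower with bicalutamide within each library number, by less than the libraries of the 2 numbers differed from each other. In the list of 41 S phase and replication genes all 41 log2 fold changes were below 0 and 22 were called lower, and in the list of 44 G2/M and mitosis genes all 44 were below 0 and 6 were called lower, where 6.82% of all tested genes were. Without the replicate block limma called none of either list, with 3 and 0 genes at an unadjusted p below 0.05. Median log2 fold changes were -0.61 and -0.54. The mean log2(TPM + 1) of the S phase list was 4.36 and 5.06 with DHT, 3.75 and 4.41 with bicalutamide and 3.31 and 4.03 in VEH, and that of the G2/M list was 3.91 and 4.92, 3.37 and 4.40, and 2.37 and 3.78. Bicalutamide in library number 7 thus lay above DHT alone in library number 3, and the groups did not overlap in 16 of the S phase genes and 1 of the G2/M genes, where 21.9% of all tested genes had BIC.DHT below DHT with no overlap. In bulk RNA, fewer cycling cells and less of these transcripts per cell cannot be told apart.

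**Figure D4:**
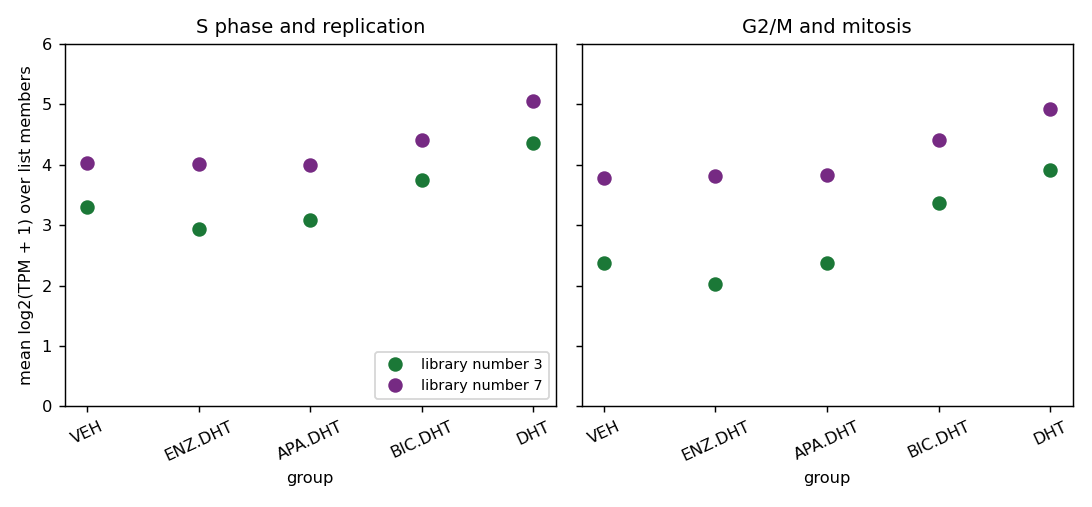
Mean log2(TPM + 1) over the members of the S phase list (left) and the G2/M list (right) in 5 groups, with green for library number 3 and purple for library number 7. Within each colour BIC.DHT lies below DHT and above VEH, and library number 7 lies above library number 3 in every group, as in BIC.DHT at 4.41 against 3.75 in the S phase list.

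Among the single genes, E2F1, a transcription factor of S phase entry, fell from 24.7 and 31.7 TPM to 10.8 and 18.1 TPM (log2 fold change -0.95, SE 0.17, adjusted p 0.0054 by limma, and 0.42 without the block). CDC6 and MCM10, which prepare origins of replication, had log2 fold changes of -1.03 (SE 0.29) and -0.93 (SE 0.23) with adjusted p (limma) of 0.038 and 0.025, and 0.73 and 0.69 without the block. AURKB, TTK and KIF23, which act in chromosome segregation and cytokinesis, had log2 fold changes of -0.92, -0.82 and -0.70 and adjusted p (limma) of 0.038, 0.017 and 0.029, and of 0.67, 0.73 and 0.77 without the block. MKI67, the gene of the proliferation marker Ki-67 (chromosome 10, 128096659 to 128126423), was at 11.7 and 24.4 TPM with DHT and 6.07 and 14.8 TPM with bicalutamide, and did not pass the test (log2 fold change -0.76, SE 0.29, adjusted p 0.12 by limma). The calls of CDC6, E2F1, TTK and KIF23 were lost without DHT replicate 1 and without BIC.DHT replicate 2, that of MCM10 without those libraries and without BIC.DHT replicate 1, and that of AURKB without any single one of the 4 libraries.

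Nuclear receptors, pioneer factors and cofactors of androgen signalling were not called. Of the 18 tested genes of this list, limma called 0 with the block and 0 without it (1 and 0 at an unadjusted p below 0.05), and with the ENZ.DHT and APA.DHT libraries left out of the fit 3 were called higher. FOXA1, the pioneer factor that opens chromatin for the receptor, was at 155.6 and 172.1 TPM with DHT and 181.4 and 186.8 TPM with bicalutamide.

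Lists of growth arrest, stress and immune genes were also followed, where 6.5% of all tested genes rose and 6.82% fell. In growth arrest and apoptosis 3 of 22 tested genes rose and none fell (0 without the block), among them CDKN1A, the cell cycle inhibitor p21, from 268.9 and 187.5 TPM to 487.7 and 279.5 TPM (log2 fold change 0.71, SE 0.18, adjusted p 0.026 by limma, and 0.65 without the block). The others were BBC3, a pro-apoptotic BCL2 family member, and BTG2, an antiproliferative gene, with log2 fold changes of 0.67 and 0.54 and adjusted p (limma) of 0.016 and 0.043 (0.091 and 0.30 without the block). Of 23 genes of the ATF4 amino acid stress response only ATF3 was called, lower, at 44.9 and 39.8 TPM with DHT and 24.97 and 21.5 TPM with bicalutamide (adjusted p 0.042 by limma, and 0.25 without the block). Of 25 interferon and antigen presentation genes 3 rose, among them IFI27L2 and IFI6, and B2M fell, and without the block 2 rose and 0 fell. B2M, the invariant light chain of class I antigen-presenting complexes, fell from 820.5 and 945.3 TPM to 559.0 and 505.9 TPM (log2 fold change -0.73, SE 0.14, adjusted p 0.0067 by limma, and 0.052 without the block). The calls of CDKN1A, BBC3, BTG2, ATF3, IFI6 and B2M were each lost without at least 2 of the 4 single libraries.

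Neuroendocrine and luminal markers were counted in the same way. Of 16 neuroendocrine and neuronal genes only 6 were tested, 3 rose (1 without the block) and 0 fell, where 6.5% of all tested genes rose (1.45% without the block), and CHGA, CHGB and INSM1 were among those too low to test. Those that rose were ENO2, neuron-specific enolase, from 16.1 and 15.6 TPM to 42.2 and 40.4 TPM (log2 fold change 1.33, SE 0.14, adjusted p 0.00022 by limma), the neuropeptide gene NTS, from 0.35 and 0.12 TPM to 3.03 and 3.91 TPM (adjusted p 0.0027 by limma, and 0.081 without the block), and TUBB3, a neuronal tubulin (adjusted p 0.017 by limma, and 0.069 without the block), whose call was lost without either BIC.DHT library and without DHT replicate 1. SYP was at 2.30 and 1.47 TPM with DHT and 1.64 and 1.20 TPM with bicalutamide. Of the 6 tested genes 2 had log2 fold changes below 0, the lowest at -0.69. With the ENZ.DHT and APA.DHT libraries left out of the fit, 3 of the 6 were called higher and 1 lower. Of 10 luminal markers 4 fell and 1 rose, and without the block 2 and 0, where 6.82% of all tested genes fell (1.68% without the block). The keratins KRT18, from 908.1 and 794.1 TPM to 488.7 and 490.4 TPM, and KRT8, from 976.0 and 804.2 TPM to 589.4 and 545.5 TPM, were among those that fell (adjusted p 0.00044 and 0.0019 by limma). FOLH1, prostate-specific membrane antigen, rose from 675.2 and 646.7 TPM to 882.5 and 875.6 TPM (log2 fold change 0.41, SE 0.11, adjusted p 0.034 by limma), and this call was lost without the block (0.16) and without any single library of the pair of groups.

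Setting BIC.DHT against VEH asked where these genes stood relative to cells without androgen, with the same BIC.DHT libraries. The test called 88 of 16636 genes (0.529%), with 49 above VEH and 39 below it (0.234%). Of the 40 androgen-induced genes 14 were called higher and none lower, where 0.295% of all genes were called higher. KLK3 had a log2 difference from VEH of 4.06 (SE 0.32, adjusted p 0.0015 by limma), KLK2 of 3.87 (SE 0.41, adjusted p 0.0050 by limma) and KLK4 of 2.72 (SE 0.24, adjusted p 0.0015 by limma). In the androgen-repressed list 2 genes were called lower than in VEH, PLA2G2A at -0.76 (SE 0.09, adjusted p 0.010 by limma) and IFI27L2 at -1.26 (SE 0.16, adjusted p 0.015 by limma). HMGCS1 differed from VEH by 0.12 (SE 0.19, adjusted p 0.84 by limma). The count of 88 rests on the block, with 2 genes called without it, among them KLK2 (adjusted p 0.034), and fell to 6 without BIC.DHT replicate 1, 4 without BIC.DHT replicate 2, 6 without VEH replicate 1 and 8 without VEH replicate 2. Of these 6, 4, 6 and 8 genes, 6, 4, 6 and 6 were above VEH. With ENZ.DHT and APA.DHT left out of the fit the balance turned, with 197 genes above VEH and 455 below it.

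Bicalutamide was also set against enzalutamide and apalutamide at the same 10 µM dose, time and DHT, in 2 pairs of antagonists. Enzalutamide and apalutamide share a thiohydantoin core, which bicalutamide lacks. Most genes were not called between them: 2 against ENZ.DHT (0.012% of those tested, with 1 higher and 1 lower, 0.00601% each) and 9 against APA.DHT (0.0541%, with 7 higher and 2 lower), with 2062 and 1643 at an unadjusted p below 0.05. The genes called higher with bicalutamide include several that androgens induce, whose values lay between those of the other antagonists and of DHT alone. P-values were adjusted over genes within each pair. Adjustment over both pairs was not made.

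ELOVL5 was the gene called in both pairs. It had 110.6 and 108.5 TPM with enzalutamide, 122.2 and 112.5 TPM with apalutamide and 182.9 and 166.1 TPM with bicalutamide, so the bicalutamide libraries were above all 4 others. Its log2 difference was 0.67 against ENZ.DHT (SE 0.07, adjusted p 0.020 by limma) and 0.57 against APA.DHT (SE 0.07, adjusted p 0.034 by limma). Against apalutamide TMPRSS2 (0.85, SE 0.11), SLC45A3 (1.11, SE 0.12), PMEPA1, an inhibitor of TGF-beta signalling (0.90, SE 0.11), the centromere gene CENPN (0.89, SE 0.12) and the primase gene PRIM1 (0.89, SE 0.12) were higher with bicalutamide, with adjusted p (limma) of 0.034 to 0.038. PLA2G2A, at 453.4 and 293.1 TPM with apalutamide and 284.3 and 165.5 TPM with bicalutamide, was lower (-0.75, SE 0.09, adjusted p 0.034 by limma). The clone-named genes called lower with bicalutamide were at low levels. AC016629.1 was at 5.16 and 6.05 TPM with apalutamide and 0 and 0.21 TPM with bicalutamide, and it was not called between bicalutamide and DHT alone. AC008752.1 was at 2.7 and 5.42 TPM with enzalutamide and listed at 0 with bicalutamide.

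KLK3 was at 295.8 and 114.9 TPM with enzalutamide, 339.8 and 90.4 TPM with apalutamide and 844.6 and 444.6 TPM with bicalutamide. Its log2 difference was 1.73 against ENZ.DHT (95% interval 1.01 to 2.44, adjusted p 0.095 by limma) and 1.80 against APA.DHT (95% interval 1.08 to 2.52, adjusted p 0.12 by limma), neither called after adjustment. UGT2B17 differed by -0.11 (95% interval -0.51 to 0.29) and -0.18 (95% interval -0.57 to 0.22), and HMGCS1 by 0.47 and 0.21, without a call. All 44 G2/M genes had values above 0 in both comparisons, with medians of 1.02 against ENZ.DHT and 0.82 against APA.DHT, and none was called. The medians over all tested genes were 0.03 and 0.01. Mean log2(TPM + 1) of the G2/M list was 3.37 and 4.40 with bicalutamide, 2.03 and 3.81 with enzalutamide and 2.38 and 3.83 with apalutamide. The gap was thus wider in library number 3 than in library number 7. The ENZ.DHT and APA.DHT replicates were less alike than the others, with 5.73% and 6.21% of genes differing by more than 2-fold between replicates against 2.48% in BIC.DHT. Without the replicate block 1 gene (0.00601%) was called against ENZ.DHT, AC008752.1, and 0 against APA.DHT, and leaving out single libraries gave 0 to 36 calls against ENZ.DHT, with 36 without ENZ.DHT replicate 2 and 0 without BIC.DHT replicate 1, and 0 or 1 against APA.DHT, with 1 without BIC.DHT replicate 2.

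**Figure D5:**
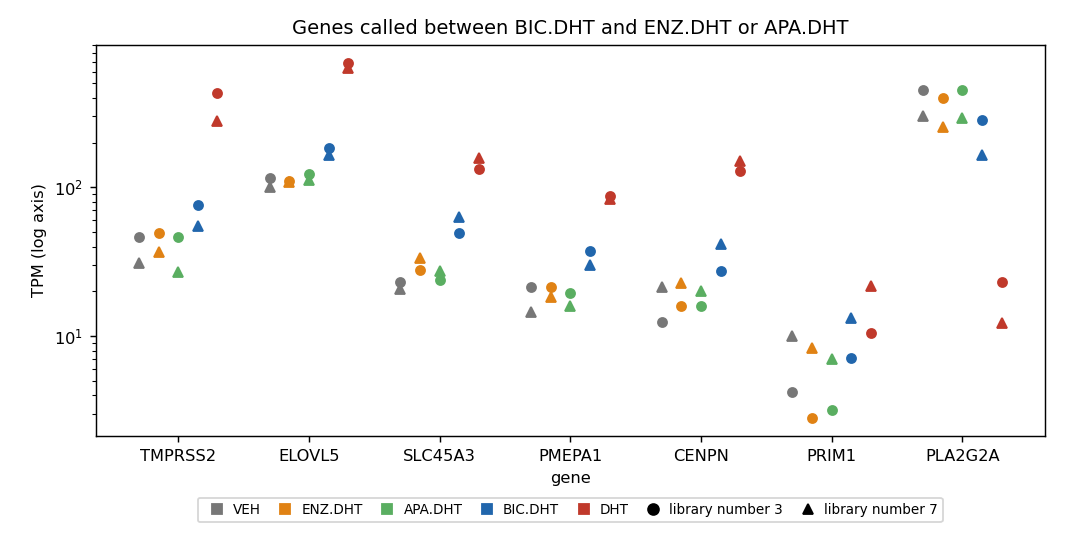
TPM (log axis) of 7 genes called between BIC.DHT and ENZ.DHT or APA.DHT, in VEH (grey), ENZ.DHT (orange), APA.DHT (green), BIC.DHT (blue) and DHT (red), with circles for library number 3 and triangles for library number 7. Blue points lie between the red points and those of the other antagonists of the same library number in all 7 genes, as in TMPRSS2 at 76.1 and 54.6 TPM with bicalutamide and 46.1 and 27.2 TPM with apalutamide.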

How the data were processed

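RNA of LNCaP cells was extracted, selected for polyadenylated transcripts, converted to stranded libraries and sequenced as 125 bp paired reads. The authors' processing notes name FastQC 0.11.9, Trim Galore 0.6.5, STAR 2.7.2b, RSEM 1.3.3 and the build GRCh38. The deposited values are TPM per gene symbol, estimated by the authors with RSEM, 1 column per library without pooling. TPM keeps no read depth, so no counting interval is given (per the labels, about 40 M read pairs per library). TPM is relative, and it was not stated whether counting used strand.

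Of 60642 symbols, 26439 were at 0 everywhere. The 16636 with a TPM of 1 or more in 2 or more of 16 libraries were tested on log2(TPM + 1), which understates changes of low genes. All 16 libraries were fitted with limma 3.58.1 (R 4.3.3, trend option), with 8 group means and the library number (3 or 7) as a block, since the libraries were paired by that number. Deviations between numbers 3 and 7 correlated across genes in all 28 pairs of groups (r from 0.20 to 0.64). Genes were called at a Benjamini-Hochberg adjusted p below 0.05 within each comparison. The script was tested on simulated data.

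Named genes are the 10 with the largest rise and fall called with and without the block (mean of at least 5 TPM in either group, no overlap, a RefSeq entry), up to 3 each way per list, the calls between antagonists and 4 set genes. The 16 gene lists, written from general knowledge, share members, such as FOLH1 and IFI27L2. The comparison, the named genes and the lists were chosen with earlier results of these data known. RefSeq matched 14146 tested symbols. ACPP was matched to ACP3 by synonym. Other list members given as examples, such as FKBP5, FASN and KRT8, were chosen after their values were seen. Some genes selected by rule are not reported here. Alternatives were no block, only the groups compared, a pseudocount of 0.1, no filter, a filter at 5 TPM, median-ratio scaling, rescaling without mitochondrial genes, no trend and leaving out each replicate.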

Additional observations from a re-analysis of the deposited data

How the results depend on the processing

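With 2 replicates per group the number of calls depends on how the spread is estimated, and TPM leaves the depth of each value unknown. Against DHT (2216 called), the replicate block and the libraries in the fit moved the count most: without the block 521 genes were called, with the fit limited to the groups compared 68, and with the ENZ.DHT and APA.DHT libraries left out (an alternative chosen after seeing the data) 4299. In that last fit the androgen-induced list had 36 lower and 1 higher, the S phase list 34 lower and the G2/M list 10 lower. Leaving out single libraries gave 755 to 1045. The other 6 alternatives gave 1814 to 2726 calls. Of 66 named genes called, 37 kept their call without the block, 22 with the fit limited to the groups compared, 55 to 65 under the other scalings, pseudocount, no filter and no trend, and 47 to 51 without single libraries. A filter at 5 TPM kept all 63 that passed it. Values could be had for 63 of the 66 without DHT replicate 1 and without DHT replicate 2, and no value changed sign under these alternatives. Against VEH (88), calls numbered 2 without the block, 0 with the fit limited to the groups compared (3820 at an unadjusted p below 0.05), 39 with no filter, 652 with ENZ.DHT and APA.DHT left out and 4 to 8 without single libraries. Against ENZ.DHT (2), they were 1 without the block, 0 with the fit limited to the groups compared (904 unadjusted), 1 with a pseudocount of 0.1, 14 with no filter, 1 with median-ratio scaling, 4 rescaled without mitochondrial genes, 1 with the trend off and 0 to 36 without single libraries. Against APA.DHT (9), they were 0 without the block (483 unadjusted), 0 with the fit limited to the groups compared (692 unadjusted), 5 with a pseudocount of 0.1, 3 with median-ratio scaling, 3 rescaled without mitochondrial genes, 0 with the trend off (1612 unadjusted) and 0 to 1 without single libraries. AC016629.1, not called against DHT, went from -0.32 to between -0.72 and 0.074 without single libraries, turning only without DHT replicate 2. The cause of these differences was not tested. The pairing by library number comes from the column names and from the correlation of deviations. In this balanced design the block leaves each fold change as it is, so it bears on the spread alone.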

Other observations

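The genes in these paragraphs were chosen after their values were seen. LAMC1, LAMB1 and FN1, which encode proteins of the extracellular matrix, did not move the same way with bicalutamide. LAMC1, the laminin gamma-1 chain, fell from 439.8 and 350.4 TPM with DHT alone to 96.4 and 84.8 TPM with bicalutamide, near its VEH levels of 89.6 and 81.4 TPM (log2 fold change -2.11, SE 0.20, adjusted p 0.00011 by limma). LAMB1, a laminin beta chain, rose from 3.88 and 1.99 TPM to 13.4 and 8.66 TPM (log2 fold change 1.63, SE 0.13, adjusted p 3.8e-05 by limma), and FN1, fibronectin, rose from 280.6 and 186.0 TPM to 712.8 and 467.2 TPM (log2 fold change 1.33, SE 0.14, adjusted p 0.00026 by limma). In both LAMB1 and FN1 the bicalutamide libraries were also higher than VEH of the same library number, at 11.04 and 7.05 TPM and 630.2 and 376.9 TPM, by log2 differences of 0.26 and 0.24 that were not called.

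IGF1R, the insulin-like growth factor receptor, fell from 14.5 and 16.9 TPM to 4.22 and 5.5 TPM, while IGFBP3, a binding protein of its ligands, rose from 110.9 and 124.1 TPM to 361.6 and 287.5 TPM, and GRB10, an adaptor that inhibits the receptor, rose from 81.9 and 67.5 TPM to 248.3 and 232.3 TPM. GREB1, a nuclear receptor cofactor, fell from 20.2 and 21.9 TPM to 5.54 and 7.48 TPM, and DBI, the acyl-CoA-binding protein, from 1286 and 1226 TPM to 439.6 and 436.6 TPM. Adjusted p by limma of these 5 genes were at most 0.00048. REG4, a secreted lectin, rose from 4.46 and 3.79 TPM to 26.95 and 19.7 TPM, the sucrase-isomaltase gene SI from 0.87 and 0.92 TPM to 4.16 and 6.56 TPM, and the glucagon gene GCG from 0.24 and 0.84 TPM to 4.15 and 6.73 TPM (adjusted p 0.00086, 0.0077 and 0.00030 by limma).

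By RefSeq gene type, 91 of 848 tested long noncoding RNAs were called (10.73%), 68 higher and 23 lower, and 1883 of 12308 protein-coding genes (15.3%), 872 higher and 1011 lower. ARLNC1, a long noncoding RNA, fell from 3.63 and 3.64 TPM to 0.23 and 0.17 TPM (log2 fold change -1.95, SE 0.17, adjusted p 6.2e-05 by limma), and it passed the filter on low values only through the DHT libraries. SSTR5-AS1, an antisense transcript, rose from 0.83 and 0.76 TPM to 5.08 and 4.48 TPM (log2 fold change 1.69, SE 0.13, adjusted p 2.7e-05 by limma), and reads of its sense partner cannot be told apart if counting ignored strand. The called gene with the highest fitted fold change, the clone-named AC026318.1, was listed at 0 in both DHT libraries and had a mean of 16.93 TPM with bicalutamide. Of the genes named in these paragraphs, FN1, REG4, SI, GCG and AC026318.1 were not called without the replicate block (adjusted p 0.16, 0.11, 0.21, 0.083 and 0.13 by limma), and the others were.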
